A study of Brassica napus with 33 samples.

Results

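Long clusters are stretches of the Brassica napus genome of at least 3000 bp from which small RNA reads were counted together, and 3642 of the 91060 clusters with a position met this length (end minus start plus 1). Small RNA had been sequenced from leaves of plants with 6 unfolded leaves (BBCH16) and from pollinated ovules collected 15 days (OS15) or 30 days (OS30) after pollination. Leaves were taken from the F1, from the paternal line G3D001 (a semi-winter, semi-synthetic inbred) and from the maternal line Express617 (a winter-type inbred). Ovules were taken from the selfed F1, from the F0 (Express617 flowers pollinated with G3D001), from selfed G3D001 and from selfed Express617. All groups consisted of 3 biological replicates, each pooled from several plants, which gave 33 libraries. The embryos of the selfed F1 segregate for the parental alleles, and the maternal tissue of an F0 ovule is Express617. The clusters carry no gene names, and the tissues were therefore not checked against marker genes.

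Plant small RNA clusters are places where RNA is cut into short RNAs by Dicer-like enzymes. Long stretches of short interfering RNA (siRNA) are typically made where RNA polymerase IV and an RNA-dependent RNA polymerase copy transposons and other repeats, and these siRNAs guide DNA methylation of the same sequence. Ovules and young seeds of the related Brassica rapa are known for a small set of loci, called siren loci, that give a large part of the siRNA of that tissue. The clusters counted here are not separated into siRNA, microRNA and other RNA, and no member is assigned to any of these classes.

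The members had a median length of 4145 bp, against 689 bp for all clusters, and 1080 of them reached 5000 bp. They were 4% of the clusters but covered 16.4 Mb, or 18.6% of the 88.2 Mb covered by all clusters. The reads of these libraries were also used to draw the borders of the clusters, so length was not independent of where and when reads fell. The members of 3000 to under 3100 bp (256 clusters) and the clusters just below the limit with 2900 bp or more (270 clusters) had similar median levels at OS30, 4.12 CPM (counts of a cluster scaled to the same library total) each. Between 12635700 and 27070031 counts per library fell on clusters, and CPM was taken relative to these totals.

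The C subgenome carried 2216 of the members, the A subgenome 1135, and 291 lay on sequences that are not placed on a chromosome. Members were 4.29% of the clusters of the C subgenome and 3.54% of those of the A subgenome. The members of the C subgenome were also somewhat longer, with a median of 4232 bp against 4010 bp in the A subgenome, and 31.6% against 26.9% of them reached 5000 bp. Among the chromosomes, the share of clusters that were long was highest on C01 (5.3%) and lowest on A03 (2.58%). Neighbouring members on a chromosome were separated by a median of 123 kb, and 538 of the 3351 placed members had another member within 10000 bp.

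The question of when long clusters are active was addressed first by their share of the counts. They held a larger share of the small RNA at OS30 than at OS15 in every genotype. At OS30 the share was 10.1% to 10.9% of the counts in the F1, 9.3% to 10.6% in the F0, 8.19% to 9.04% in G3D001 and 9.67% to 9.94% in Express617. At OS15 it was 6.83% to 6.98% in the F1, 7.16% to 7.6% in the F0, 5.99% to 7.31% in G3D001 and 6.8% to 7.24% in Express617. No OS30 library overlapped with an OS15 library, and the OS30 mean was higher by 2.77 percentage points over the genotypes (two-sided exact permutation test with stage labels permuted within genotype, p = 1.25e-05, the smallest value it can give, adjusted p = 0.000237 over 19 comparisons). Libraries of a genotype carry the same label code at several stages, and the labels do not say whether they share plants. In an alternative added after the values were seen, the 12 differences between libraries with the same code were all above 0 (1.36 to 3.89 percentage points, exact sign-flip permutation test, p = 0.000488, the smallest value it can give). Both tests are limited by how the members were chosen. Cluster length was drawn from the same reads, and 2714 members (74.5%) reached a mean of 1 CPM only at OS30. The p-values are therefore no independent evidence that long clusters hold more small RNA at OS30. In leaves the share was 8.52% to 8.95% in the F1, 8.71% to 9.37% in G3D001 and 8.77% to 9.44% in Express617, and the genotypes overlapped. Within OS30 the genotype means differed by up to 1.89 percentage points, between F1 and G3D001 (exact permutation test over the 4 genotypes, p = 0.00584, adjusted p = 0.0555). Single pairs of genotypes with 3 libraries each cannot give a p below 0.1 in this test.

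Few members carried this share in leaves and more did at OS30. The 10 members with the most counts in a library held 91.1% to 94.4% of the counts of all members in leaves, 48.8% to 55.7% at OS15 and 28.2% to 49.5% at OS30. Levels are also given per length, where the division by the length that chose the members lowers their values, so the comparison with shorter clusters is no finding. The median of the members was 0.0619 to 0.107 CPM per kb in leaves, against 0.451 to 0.86 CPM per kb for shorter clusters, and 0.0503 to 0.0782 at OS15, against 0.398 to 0.605. At OS30 the medians of the members were 1.68 to 2.31 CPM per kb in the F1, F0 and Express617 libraries, against 3.71 to 4.62 for shorter clusters. The 3 OS30 libraries of G3D001 stood apart, with 0.441 to 0.503 CPM per kb for members, against 0.935 to 1.08 for shorter clusters. Without division by length the medians were 0.258 to 0.471 CPM for members in leaves, against 0.28 to 0.538 CPM for shorter clusters, and 0.208 to 0.366 CPM at OS15, against 0.233 to 0.409 CPM. At OS30 they were 7.29 to 9.81 CPM for members outside G3D001, against 2.22 to 2.85 CPM for shorter clusters, and 1.89 to 2.09 CPM in G3D001, against 0.61 to 0.725 CPM.

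**Figure D1:**
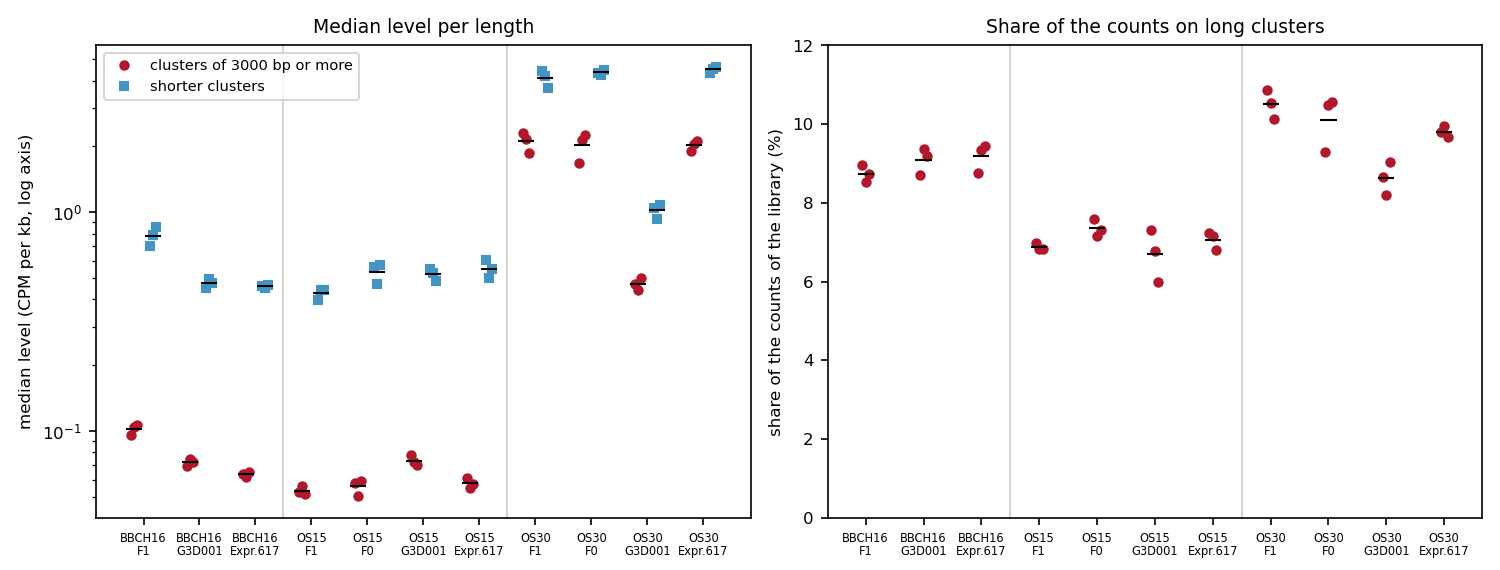
Left, the median level of long clusters (red circles) and of shorter clusters (blue squares) in each library, in CPM per kb on a log axis; right, the share of the counts of each library on long clusters, in percent. Bars are means of 3 libraries. Members are at 1.68 to 2.31 CPM per kb in OS30 libraries other than G3D001, and at 0.441 to 0.503 in those of G3D001.

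A level of at least 1 CPM was reached by 554 to 992 members in a leaf library, by 503 to 810 in an OS15 library and by 2792 to 3622 in an OS30 library. There were 2714 members (74.5%, against 66.4% of the shorter clusters) with a mean under 1 CPM in leaves and at OS15 and of at least 1 CPM at OS30. Together they held 3.08% of the counts in the F1 at OS30, 2.98% in the F0, 0.59% in G3D001 and 2.94% in Express617. At OS15 the same members held 0.0597% in the F1, 0.0643% in the F0, 0.0853% in G3D001 and 0.0656% in Express617.

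In leaves, the members with the most small RNA per length were Cluster_45927 (C03, 36294152 to 36297196, Express617 assembly), Cluster_14834 (A05, 13976850 to 13981233) and Cluster_79004 (C09, 18800152 to 18803867). At OS15 Cluster_14834 had 946 to 1238 CPM in the F1, 1062 to 1420 in the F0, 1498 ± 393 (SD, n = 3) in G3D001 and 1310 to 1392 in Express617. It had 28091, 26652 and 27308 CPM in F1 leaves, 25462, 27513 and 27816 CPM in G3D001 leaves and 27443, 31393 and 30039 CPM in Express617 leaves. Each leaf library was above every ovule library for this cluster, and the level in Express617 fell by 4.57 on the log2 scale at OS15 relative to leaves (SE 0.26, edgeR adjusted p = 9.23e-19). The ratios between these clusters, which lie on different chromosomes, varied within a stage. Counts of Cluster_45927 were 0.804 to 1.12 times those of Cluster_14834 in leaves, 0.664 to 0.917 times at OS15 and 0.763 to 1.04 times at OS30. Those of Cluster_79004 were 0.364 to 0.457 times in leaves, 0.437 to 0.547 times at OS15 and 0.323 to 0.65 times at OS30. Whether reads that match several of these places link them was not tested.

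The members with the most small RNA per length in ovules were Cluster_61002 (C06, 3551021 to 3555560), Cluster_13863 (A05, 4593436 to 4597403) and Cluster_7987 (A03, 8360748 to 8364125), at OS15 as at OS30. At OS15, Cluster_61002 had 6312, 6487 and 6195 CPM in the F1, 6230, 5889 and 5844 CPM in the F0, 6401, 6208 and 5500 CPM in G3D001 and 6180, 6140 and 5626 CPM in Express617. In leaves its highest value was 1.58 CPM, in an F1 library. At OS30 it had 3871 to 4525 CPM in the F1, 3404 to 3722 in the F0, 8003 to 8297 in G3D001 and 3425 to 3964 in Express617, so that the libraries of G3D001 were above all others. In all, 28 members had at least 100 CPM at OS15 and under 1 CPM in leaves, of which 15 lay on the A and 13 on the C subgenome. They held 4.36% of the counts in the F1 at OS15, 4.85% in the F0, 3.81% in G3D001 and 4.63% in Express617, but 0.00145% in F1 leaves, 0.00087% in G3D001 leaves and 0.000605% in Express617 leaves. This class was not particular to long clusters. It held 0.769% of the members and 0.824% of the shorter clusters (720 clusters), and the shorter ones held 58.1% of the counts in the F1 at OS15, 56.6% in the F0, 56.1% in G3D001 and 53.9% in Express617.

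**Figure D2:**
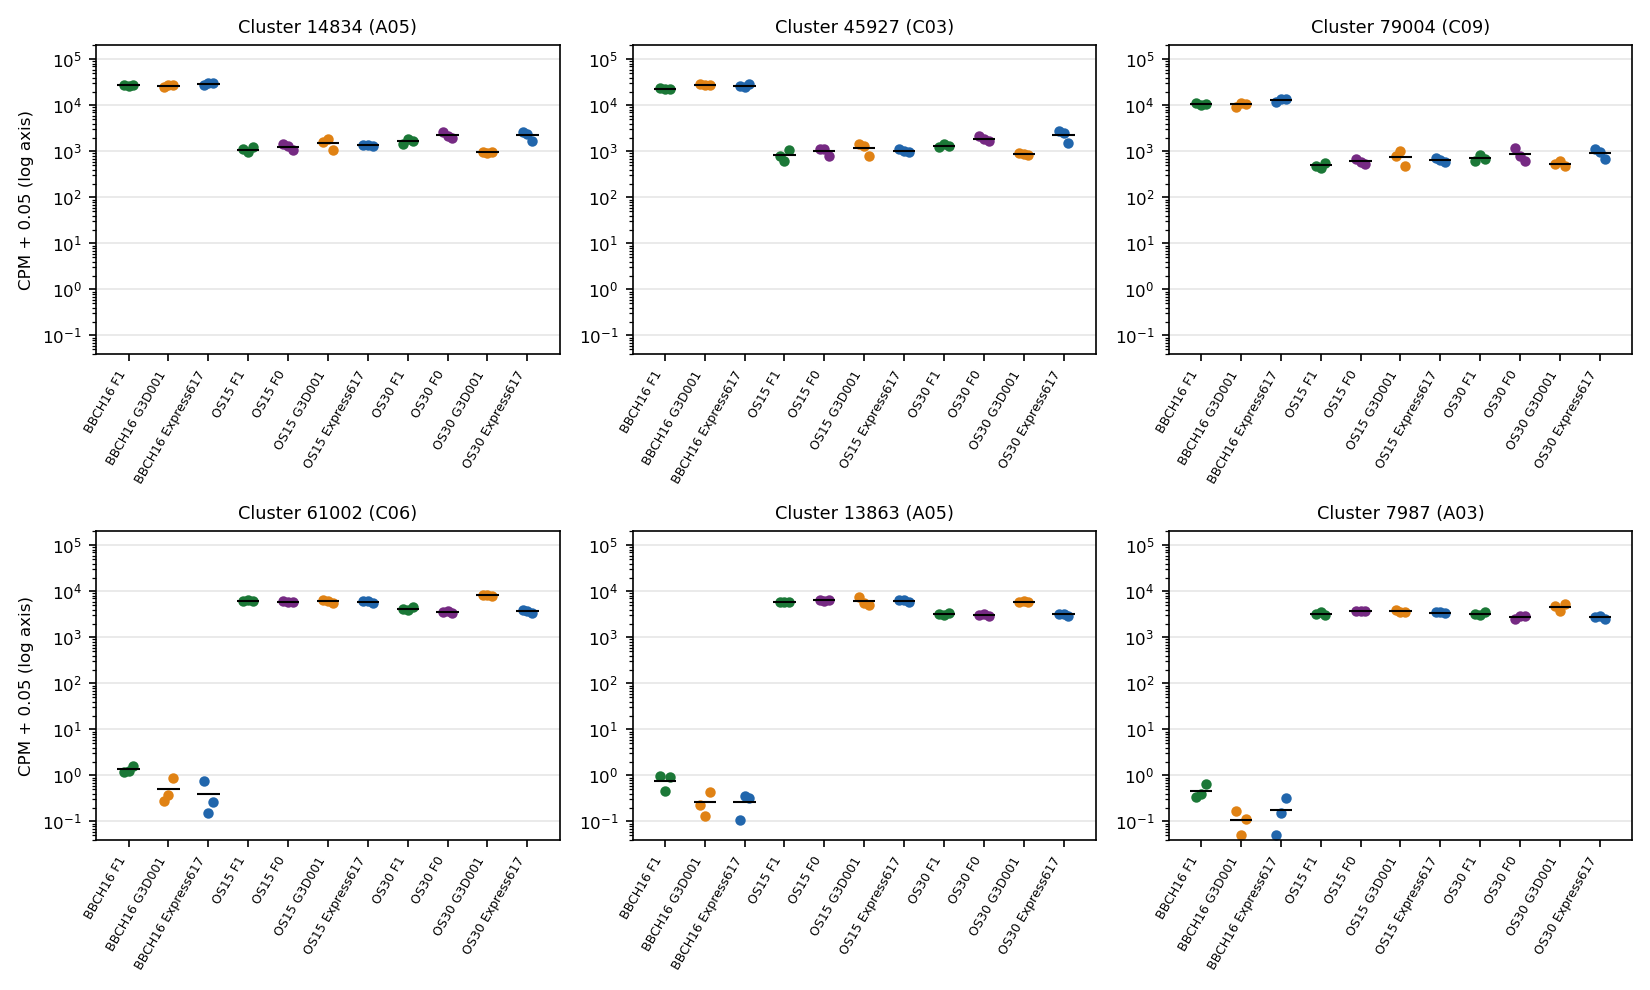
Level in every library of the 3 members with the highest CPM per kb in leaves (top) and in ovules (bottom), as CPM plus 0.05 on a log axis, with bars for the means of 3 libraries. The top members lie between 9266 and 31393 CPM in leaves, and the bottom members have at most 1.58 CPM there.

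Most members rose between the ovule stages, which is a description, because their length was drawn from the same reads. Changes were tested with edgeR's quasi-likelihood test on TMM-scaled counts, which sets the scale of a library from clusters of moderate change, with Benjamini-Hochberg adjustment over all clusters and a threshold of 0.05. Log2 changes and ratios printed with an SE are on this TMM scale, whereas CPM uses library totals. They can therefore differ from the change between the printed CPM values, above all where OS30 libraries enter. At OS30 relative to OS15, 2871 members were higher in the F1 (background over all clusters 31.5%) and 325 were lower (background 24.1%). In the F0, 2886 members were higher (background 32.2%) and 329 lower (background 24.2%). In G3D001, 2344 members were higher (background 15.6%) and 153 lower (background 11.8%). In Express617, 2871 members were higher (background 33.7%) and 320 lower (background 22.5%). The members higher at OS30 were thus 78.8% in the F1, 79.2% in the F0, 64.4% in G3D001 and 78.8% in Express617. The median log2 change over all members, called or not, was 2.33 in the F1, against 0.50 for all clusters. It was 2.38 against 0.44 in the F0, 1.76 against 0.19 in G3D001, and 2.37 against 0.54 in Express617.

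The share of clusters that were higher at OS30 was larger in each longer class up to 7000 bp, given here as a description because length was drawn from the same reads. In Express617 it was 24.5% for clusters under 500 bp, 39.8% for 1000 to under 2000 bp, 70.3% for 3000 to under 4000 bp, 88.7% for 5000 to under 7000 bp and 86.3% for 7000 bp or more. In G3D001 the shares of the same classes were 9.04%, 17.9%, 52.3%, 79.3% and 78.6%. Just above and below the limit, 63.7% of the members of 3000 to under 3100 bp and 60% of the clusters of 2900 to under 3000 bp were higher in Express617. The scale matters for these values. With the total counts of the library as the scale, the median log2 change in Express617 was 3.20 for all clusters and 5.03 for the members. On that scale 3435 members were higher and 54 lower, against 75799 and 4349 of all 91060 clusters.

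**Figure D3:**
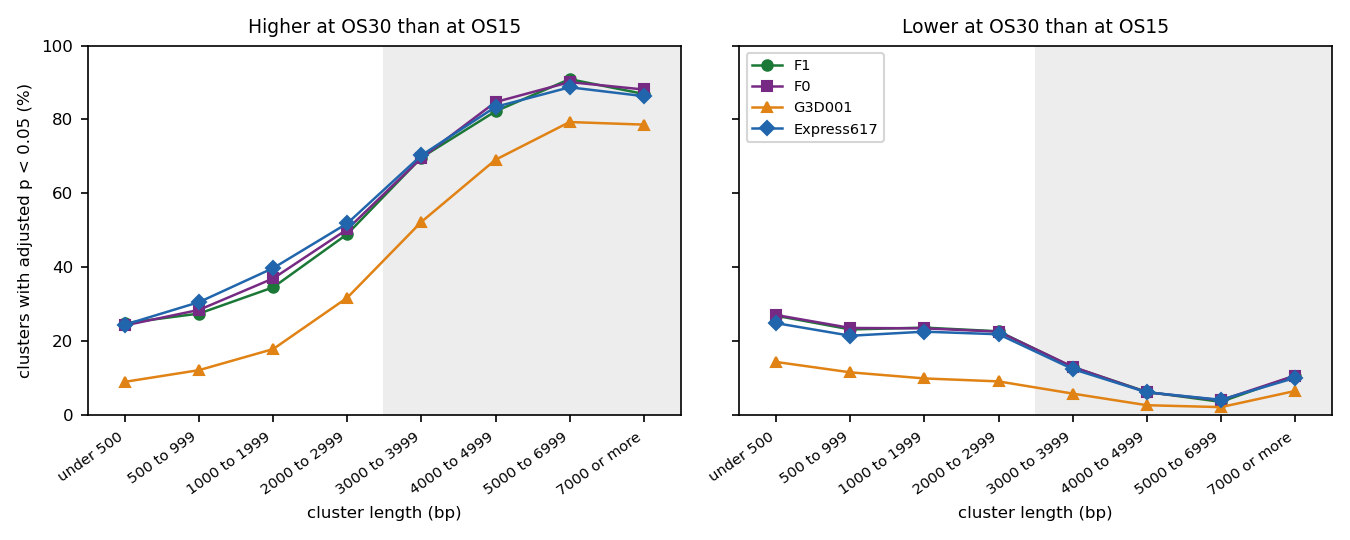
Percentage of clusters with an adjusted p-value under 0.05 that were higher (left) or lower (right) at OS30 than at OS15, by cluster length in bp, for F1, F0, G3D001 and Express617. The shaded bins hold the long clusters. The share of higher clusters is 24.5% under 500 bp and 88.7% at 5000 to under 7000 bp in Express617.

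The 3 longest members show how different single long clusters were. Cluster_62949 (C06, 19921600 to 19935546, 13947 bp) had 154, 183 and 201 CPM in Express617 at OS30, against 0.273, 0.553 and 0.323 CPM at OS15. On TMM-scaled counts its log2 change was 6.18 (SE 0.38, edgeR adjusted p = 3.25e-17). In G3D001 it had 17.6, 9.82 and 19.4 CPM at OS30, below all OS30 libraries of the other genotypes, which ranged from 97.4 to 212 CPM. Cluster_79041 (C09, 19161479 to 19175482, 14004 bp) had 23.2 to 26.2 CPM in Express617 at OS30, against 0.83 to 1.45 CPM at OS15. The longest, Cluster_78675 (C09, 15804139 to 15818348, 14210 bp), had 72.8 to 88.1 CPM in Express617 at OS30, against 18.9 to 23.8 CPM at OS15, yet its log2 change on TMM-scaled counts was -0.83 (SE 0.24, edgeR adjusted p = 0.00301). Its direction therefore depended on the scale.

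Cluster_30207 (A10, 4033873 to 4040437) was the other member with the smallest adjusted p-values among those higher at OS30 in Express617. It had 87.2, 94.6 and 94.6 CPM at OS30, against 0.341, 0.553 and 0.646 CPM at OS15 (log2 change 4.76 on TMM-scaled counts, SE 0.31, edgeR adjusted p = 1.44e-16). In the opposite direction, Cluster_59907 (C05, 39593558 to 39599735) had 53.8, 69.1 and 56.4 CPM at OS30 in Express617, against 618, 616 and 573 CPM at OS15. In G3D001 the same cluster had 733, 495 and 926 CPM at OS30, against 1061, 537 and 715 CPM at OS15, so that its stages overlapped. Cluster_46912 (C03, 44844043 to 44848939) had 26.7 to 32.1 CPM at OS30 in Express617, against 193 to 213 CPM at OS15, and 511 to 529 CPM at OS30 in G3D001, against 441 to 540 CPM at OS15.

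Fewer members passed the test between leaf and young ovule. At OS15 relative to leaves, 758 members were called in the F1 (20.8%, background 30.8%), 416 of them higher (background 16%) and 342 lower (background 14.9%). The number was 715 in G3D001 (19.6%, background 27.5%) and 690 in Express617 (18.9%, background 23.5%). With total counts as the scale, 215 members were higher and 1251 lower in the F1, against 9811 and 35912 of all 91060 clusters. This split therefore depended on the scale. The typical member had few reads at these stages, with a median of 4 to 7 counts per library in leaves and 3 to 6 counts at OS15, against 31 to 217 counts at OS30. In leaves and at OS15 the share called between the parents was smaller where counts were few, for members as for shorter clusters. In leaves it was 6.15% of the members with a mean under 5 counts, 20.6% of those with 5 to under 20 counts and 34.4% of those with 20 to under 100 counts, and at OS15 these shares were 4.87%, 22% and 36%. For shorter clusters they were 7.32%, 20.1% and 28.6% in leaves and 6.95%, 21% and 38.2% at OS15. At OS30, 76.9% of the 13 members with 5 to under 20 counts were called, and 59.4% of those with 20 to under 100.

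The parental lines differed in a similar share of the long clusters as of all clusters. In leaves, 589 of 3638 tested members differed between G3D001 and Express617 (16.2%, background 16.5%), 269 higher in G3D001 (background 6.02%) and 320 lower (background 10.5%). On the scale of total counts 381 were higher and 241 lower in leaves, against 7830 and 7278 of all 89873 clusters tested. At OS15, 555 members differed (15.2%, background 17.9%), of which 362 were higher (background 8.15%) and 193 lower in G3D001 (background 9.75%). At OS15 the median log2 ratio of G3D001 to Express617 was 0.31 for the members and -0.01 for all clusters. At OS30, 2224 members differed (61.1%, background 59.7%), with 1106 higher (background 30.9%) and 1118 lower in G3D001 (background 28.8%).

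The direction at OS30 depended on the scale. The TMM factors were 3.23 to 3.95 in the OS30 libraries of F1, F0 and Express617 and 0.909 to 1.02 in those of G3D001, against 0.43 to 0.876 in leaves and at OS15. With total counts as the scale, the median log2 ratio of G3D001 to Express617 at OS30 was -2.02 for all clusters and for the members. On that scale 106 members were higher and 3224 lower in G3D001, against 5402 and 71651 of all 91053 clusters tested. Parental differences at OS30 are therefore given as differences from the bulk of the clusters. The share called was 20.7% on the A and 14.2% on the C subgenome in leaves, 18.6% and 13.8% at OS15, and 65.8% and 58.2% at OS30. This difference between the subgenomes was not tested.

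Chromosomes A02 and C02 stood apart. The paper's supplement, citing earlier work, reports that in G3D001 all of A02 is duplicated and all of C02 is deleted. Differences in small RNA on them cannot be told apart here from differences in DNA copies. Relative to the median of all clusters, the median log2 ratio of G3D001 to Express617 of the 154 members on A02 was 0.79 in leaves, 0.88 at OS15 and 0.90 at OS30. That of the 189 members on C02 was -1.75 in leaves, -0.83 at OS15 and -1.40 at OS30. In leaves, 0 members on C02 were higher and 61 were lower in G3D001, at OS15, 8 were higher and 32 lower, and at OS30, 13 were higher and 135 lower. Shorter clusters of these chromosomes were not compared, so the values do not show a trait of long clusters. Cluster_41330 (C02, 55582976 to 55587955) went the other way at OS15, with 93.8 to 115 CPM in G3D001, against 0.136 to 0.269 CPM in Express617. Its cause was not tested. On the other chromosomes the medians ranged from -0.30 to 0.25 in leaves, and A05 reached -0.69 at OS30.

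**Figure D4:**
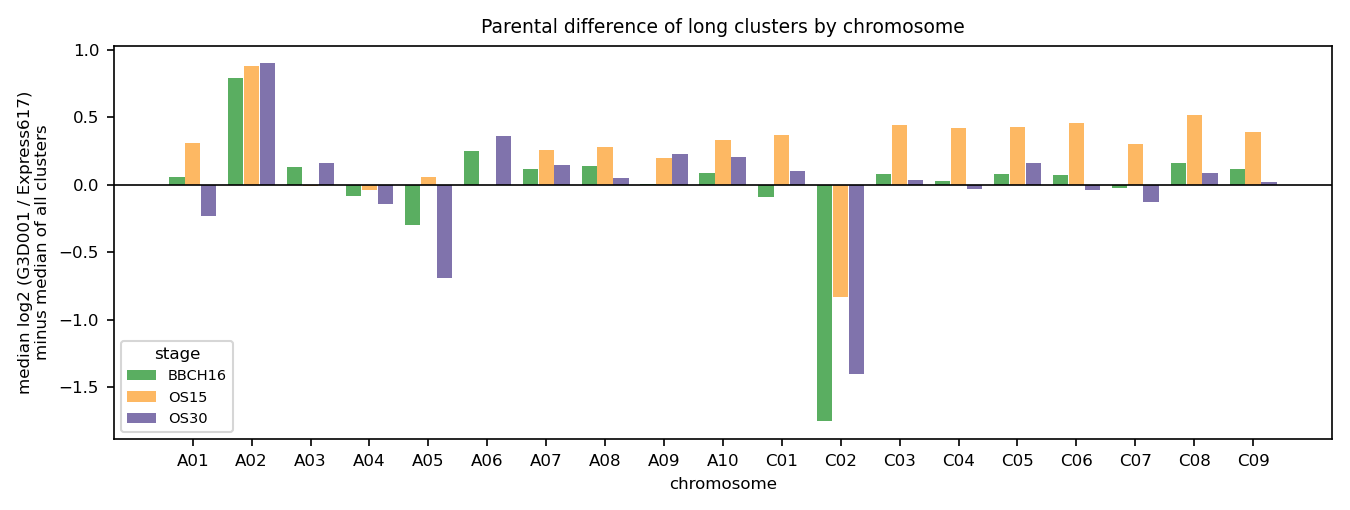
Median log2 ratio of G3D001 to Express617 of the long clusters of each chromosome, minus the median of all clusters, in leaves (BBCH16) and in ovules at OS15 and OS30. A02 is at 0.79 to 0.90 and C02 at -1.75 to -0.83.

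Some members had small RNA in 1 parental line and almost none in the other. Cluster_4688 (A02, 12509688 to 12514967) had 2568, 2405 and 2309 CPM in G3D001 leaves, against 0.873, 0.774 and 0.21 CPM in Express617 leaves, a log2 ratio of 11.63 (SE 0.32, edgeR adjusted p = 3.11e-38). It ranked first in that direction at each stage, and it lies on A02, which the paper's supplement reports as duplicated in G3D001. At OS15 it had 1208, 871 and 1043 CPM in G3D001, against 0.477, 0.484 and 0.323 CPM in Express617. Cluster_15253 (A05, 18672850 to 18676115) was the reverse, with 0.75, 0.871 and 0.583 CPM in G3D001 leaves, against 601, 396 and 450 CPM in Express617 leaves (log2 ratio -9.61, SE 0.31, edgeR adjusted p = 2.00e-34). In ovules it had 0.794 to 3.54 CPM in G3D001, against 1000 to 2532 CPM in Express617, and the parents did not overlap.

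Other members differed between the parents at some stages only. Cluster_21669 (A07, 18941915 to 18945399) had 923, 797 and 757 CPM in G3D001 at OS15, against 10.1, 9.13 and 9.8 CPM in Express617 (log2 ratio 6.35, SE 0.22, edgeR adjusted p = 2.16e-22), while its leaf libraries held 0 to 2 counts each. On C02, Cluster_39693 (38010580 to 38016291) had 6, 5 and 3 counts in G3D001 at OS15, against 6600, 5489 and 7296 counts in Express617. At OS30 its mean was 0.0621 CPM in G3D001, against 88.2 CPM in Express617. Cluster_39382 (34754920 to 34759254) had 1.34 to 1.69 CPM in G3D001 at OS30, against 372 to 425 CPM in Express617. At OS15 its mean was 0.674 CPM in G3D001, against 483 CPM in Express617. In leaves both clusters had means under 1 CPM in both parents. C02 is the chromosome reported as deleted in G3D001. Cluster_71072 (C08, 2935614 to 2943311) had 39.2, 47.3 and 39.4 CPM in G3D001 leaves, against 2.68, 2.42 and 2.59 CPM in Express617 leaves. Its ovule levels at OS15 overlapped, with 7.51 to 8.56 CPM in G3D001 and 6.34 to 9.06 CPM in Express617. At OS30 Cluster_71072 had 8.14 to 9.94 CPM in G3D001, against 29.5 to 42.1 CPM in Express617. On that total-count scale the median log2 ratio of all clusters at OS30 was -2.02.

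Replicates of G3D001 themselves differed at Cluster_12552 (A04, 11684114 to 11688862). It had 0.231, 0 and 0.388 CPM in G3D001 leaves, against 87, 67.8 and 73.7 CPM in Express617 leaves (log2 ratio -8.65, SE 0.40, edgeR adjusted p = 1.45e-26). At OS15 the libraries of G3D001 had 0, 44.7 and 0.0625 CPM, and at OS30 they had 41.5, 75.4 and 1.24 CPM, against 136 to 150 CPM in Express617 at OS15 and 156 to 176 CPM at OS30. The cause of this spread was not tested.

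The parental difference changed between OS15 and OS30 for 840 members (23.1%, background 22.5%), 334 towards G3D001 (9.17%, background 15.1%) and 506 towards Express617 (13.9%, background 7.35%). Cluster_56288 (C05, 9342050 to 9346398) had 29.5, 26.3 and 26.4 CPM in G3D001 at OS30, against 6.31, 4.83 and 5.24 CPM in Express617. At OS15 it had 1.65, 1.5 and 0.625 CPM in G3D001, against 10.6, 10.5 and 9.69 CPM in Express617. The parents had thus changed places, and the change in the log2 ratio on TMM-scaled counts was 7.31 (SE 0.44, edgeR adjusted p = 5.66e-16). Cluster_16881 (A06, 7031900 to 7037523) also changed places, with 406, 424 and 362 CPM in G3D001 at OS30, against 40.8, 40.4 and 37.9 CPM in Express617, and with 78.6, 59.3 and 40.7 CPM in G3D001 at OS15, against 203, 158 and 180 CPM in Express617 (change of 6.89, SE 0.42, edgeR adjusted p = 6.36e-16). When total counts set the scale, 73 members changed towards G3D001 and 2342 towards Express617, against 2781 and 47403 of all 91060 clusters.

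In F1 leaves and F1 ovules at OS15, few members differed from either parent. In leaves, 206 members differed between the F1 and G3D001 (5.66%, background 6.51%) and 151 between the F1 and Express617 (4.15%, background 4.37%), of which 96 were higher (background 2.32%) and 55 lower in the F1 (background 2.05%). On the scale of total counts the last comparison called 422 higher and 6 lower, against 10498 and 645 of all clusters. At OS15, 179 members differed between the F1 and G3D001 (4.91%, background 6.99%) and 165 between the F1 and Express617 (4.53%, background 6.25%). The F1 was higher than G3D001 in 125 of these members (background 5.22%) and lower in 54 (background 1.78%). With total counts it was higher in 71 and lower in 195 (3000 and 4532 of all clusters). Against Express617 the F1 was higher in 133 (background 4.55%) and lower in 32 (background 1.7%). With total counts it was higher in 72 and lower in 70 (2944 and 3462 of all clusters). At OS30 the numbers were larger, with 1862 members for the F1 and G3D001 (51.1%, background 52.7%) and 1470 for the F1 and Express617 (40.4%, background 19%). Of these 1470 members, 1046 were higher (background 9.97%) and 424 lower in the F1 (background 9.07%). With total counts as the scale, 769 were higher and 546 lower (6334 and 11065 of all clusters). The F1 was higher than G3D001 in 1263 members (background 26%) and lower in 599 (background 26.7%). With total counts these numbers were 3375 and 73 (72728 and 4890 of all clusters).

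The F0 was close to its maternal line. At OS15, 538 members differed between the F0 and G3D001 (14.8%, background 18.5%), but 1 member differed between the F0 and Express617 (0.0275%, background 0.0132%). That member was Cluster_4688, with 6.24, 3.97 and 5.61 CPM in the F0, against 0.477, 0.484 and 0.323 CPM in Express617 (log2 ratio 3.68, SE 0.25, edgeR adjusted p = 2.00e-10). At OS30, 1569 members differed between the F0 and G3D001 (43.1%, background 50.1%) and 517 between the F0 and Express617 (14.2%, background 4.58%). Against Express617 the F0 was higher in 286 members (background 2.76%) and lower in 231 (background 1.82%). The F0 was higher than G3D001 in 920 members (background 24.5%) and lower in 649 (background 25.7%). With total counts it was higher in 3362 and lower in 70 (73729 and 4387 of all clusters). The number for the F0 and Express617 rested on single libraries, as it was 5.16% without Express617 replicate 2 and 28.3% without F0 replicate 1. Both trios of an ovule stage use the same parental libraries.

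The signs of the comparisons within a trio (a hybrid and both parents) placed members in dominance patterns. Maternal, paternal and additive patterns required a called difference between the parents. A pattern was maternal when the hybrid also differed from G3D001, on the side of Express617, but not detectably from Express617. It was paternal in the opposite case. It was additive when the hybrid lay between the parents and differed from both, and transgressive up when it was above both. In F1 leaves, 156 members were maternal (background 4.88%), 96 paternal (background 2.68%), 36 additive (background 0.802%) and 0 transgressive up (background 0.0389%). In the F1 at OS15, 101 were maternal (background 4.02%), 102 paternal (background 3.58%), 24 additive (background 1.11%) and 23 transgressive up (background 0.97%). These were 4.29%, 2.64%, 0.99% and 0% of the tested members in leaves and 2.77%, 2.8%, 0.659% and 0.632% at OS15.

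In the F0 at OS15, 414 members were maternal (11.4%, background 14.6%), 0 paternal (background 0%), 1 additive (background 0.0066%) and 0 transgressive up (background 0.0033%). At OS30 the F1 had 960 maternal members (26.4%, background 36.8%), 630 paternal (17.3%, background 6.12%), 286 additive (7.85%, background 8.04%) and 381 transgressive up (10.5%, background 2.09%). The F0 at OS30 had 1092 maternal members (30%, background 43%), 264 paternal (7.25%, background 1.81%), 125 additive (3.43%, background 2.06%) and 64 transgressive up (1.76%, background 0.346%). These patterns rest on the TMM scale, and the calls of the hybrids at OS30 behind them moved with the scale as given above.

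Single transgressive members showed how far such patterns held. Cluster_80954 (C09, 35166383 to 35169753) had 1455, 1460 and 1231 CPM in the F1 at OS15, against 718, 748 and 576 CPM in G3D001 and 720, 648 and 711 CPM in Express617. All F1 libraries were above all parental ones (log2 ratio 1.44 to G3D001, SE 0.16, edgeR adjusted p = 2.23e-08, and 1.35 to Express617, SE 0.16, edgeR adjusted p = 7.99e-08). At OS30 Cluster_61407 (C06, 6330102 to 6333716) had 11.1, 9.12 and 8.02 CPM in the F1, against 0.281 to 0.549 CPM in G3D001 and 1.98 to 2.51 CPM in Express617. Cluster_33994 (C01, 16812549 to 16817311) had 21.2, 20.7 and 23.6 CPM in the F0 at OS30, against 1.4 to 3.16 CPM in G3D001 and 6.93 to 8.2 CPM in Express617. These 3 members were above both parents on either scale.

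The members below both parents were less certain. In F1 leaves it was Cluster_45927, with 22146 to 23741 CPM, against 27321 to 28522 CPM in G3D001 and 25239 to 28585 CPM in Express617, a difference that was called on TMM-scaled counts but not with total counts (edgeR adjusted p = 0.0638 to G3D001 and 0.124 to Express617). Cluster_83636 (C09, 60064378 to 60067671) rested on 0, 1 and 0 counts in the F1 at OS15, against 3, 7 and 7 counts in G3D001 and 5, 6 and 11 counts in Express617, and lost the call when single libraries were left out. At OS30, Cluster_1187 (A01, 11680938 to 11684385) had 2.82 to 4.69 CPM in the F1, against 2.17 to 3.5 CPM in G3D001 and 9.32 to 12.8 CPM in Express617. Cluster_58530 (C05, 28105785 to 28109376) had 1.98 to 2.66 CPM in the F0, against 1.44 to 1.79 CPM in G3D001 and 6.52 to 7.35 CPM in Express617. Both were below G3D001 on TMM-scaled counts but not on total counts.

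The position of a hybrid on the scale from Express617 (0) to G3D001 (1) was taken as the median over members with a called parental difference of at least 1 on the log2 scale. On the TMM scale F1 leaves were midway, at 0.505 ± 0.023 (SD, n = 3, 564 members), as were F1 ovules at OS15, at 0.474 ± 0.04 (530 members). With total counts they were at 0.531 ± 0.034 (607 members) and 0.364 ± 0.0097 (536 members). F0 ovules at OS15 were at the maternal value, at 0.0469 ± 0.021 (529 members). At OS30 the F1 was at 0.393 ± 0.011 (1450 members) and the F0 at 0.34 ± 0.075 (1433 members), against 0.149 ± 0.048 and 0.108 ± 0.018 for shorter clusters. With total counts as the scale, 3002 members met the limit in the F1 trio and 3000 in the F0 trio at OS30. These members were at 0.0368 ± 0.11 in the F1 and 0.0578 ± 0.16 in the F0, against 0.182 ± 0.1 and 0.088 ± 0.034 for shorter clusters. The OS30 positions and their order thus depended on the scale, which also changed which members were taken. They also differed with the direction of the parental difference. Among members with a parental difference of at least 3 on the log2 scale (chosen after the values had been seen, TMM scale), the F1 at OS30 was at 0.059 ± 0.02 for the 63 members higher in G3D001 and at 0.319 ± 0.0034 for the 106 lower in G3D001, against 0.0506 and 0.479 for shorter clusters. The F0 at OS30 was at 0.0136 ± 0.0054 for 65 members higher and at 0.437 ± 0.15 for 106 members lower in G3D001, against 0.00601 and 0.415 for shorter clusters. With total counts these OS30 positions were 0.246 ± 0.039 and 0.367 ± 0.051 in the F1, and 0.055 ± 0.026 and 0.438 ± 0.14 in the F0. In F1 leaves, members higher and lower in G3D001 were at 0.436 and 0.539 on the TMM scale, and at 0.587 and 0.286 with total counts. In the F1 at OS15 they were at 0.452 and 0.522, and at 0.318 and 0.638 with total counts.

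Members with a large parental difference at both ovule stages were then examined in the F0. After the values had been seen, members were taken with a called parental difference in the same direction at OS15 and OS30. The difference had to be at least 8-fold on TMM-scaled counts at both stages. Of these members, 10 were higher and 21 lower in G3D001. In CPM, some of the 10 were under 8-fold at OS30, such as Cluster_86270 with means of 5.71 CPM in G3D001 and 2.85 CPM in Express617. The choice therefore rests on the TMM scale. At OS30, 5 of the 10 members higher in G3D001 were above Express617 in the F0, and 1 was below it. At OS15, 1 of the 10 was above Express617 in the F0. Of the 21 members lower in G3D001, 3 differed between the F0 and Express617 at OS30, each lower in the F0, and 0 at OS15. Over all clusters, 2.76% were higher and 1.82% lower in the F0 than in Express617 at OS30, and 0.0132% differed at OS15. The counts of the chosen members are a description. The members were chosen for a parental difference that uses the same Express617 libraries as the comparison with the F0, which favours an F0 on the side of G3D001, and both stages contributed to the choice.

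Among them, Cluster_4688 had 790, 1106 and 1224 CPM in the F0 at OS30, against 2319, 1763 and 2723 CPM in G3D001 and 6.03, 4.54 and 4.5 CPM in Express617. Its F0 libraries at OS15 had 3.97 to 6.24 CPM, as given above. The F1 carried the signal at both stages, with 1614 to 1804 CPM at OS30 and 589 to 661 CPM at OS15. On the same chromosome, Cluster_5660 (A02, 19225351 to 19229970) had 266, 346 and 420 CPM in the F0 at OS30, against 833, 628 and 992 CPM in G3D001 and 40.6, 42.2 and 25.2 CPM in Express617. At OS15 it had 14.5, 15 and 17 CPM in the F0, against 170, 126 and 180 CPM in G3D001 and 12.1, 9.89 and 16.7 CPM in Express617. In leaves Cluster_5660 was less different between the parents, with 368 to 382 CPM in G3D001, against 156 to 277 CPM in Express617.

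Not every member of this kind had a paternal signal in the F0 at OS30. Cluster_21669 had 8.85, 9.32 and 8.61 CPM in the F0 at OS30, against 700, 607 and 791 CPM in G3D001 and 8.3, 9.02 and 8.84 CPM in Express617, while the F1 had 216, 218 and 243 CPM. Cluster_81850 (C09, 42472426 to 42475531) had 6.37 to 8.99 CPM in the F0 at OS30, against 236 to 267 CPM in G3D001 and 6.46 to 8.09 CPM in Express617. For both clusters the F0 libraries overlapped with those of Express617. The change between stages of the difference of the F0 from Express617 was then tested in the fit of all libraries, also after the values had been seen. It was called for 23 members (0.632%, background 0.194%), 12 of them towards a higher F0 at OS30 (background 0.146%). The change was 3.92 on the log2 scale for Cluster_4688 (SE 0.44, edgeR adjusted p = 3.51e-06) and 2.85 for Cluster_5660 (SE 0.36, edgeR adjusted p = 1.51e-05).

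**Figure D5:**
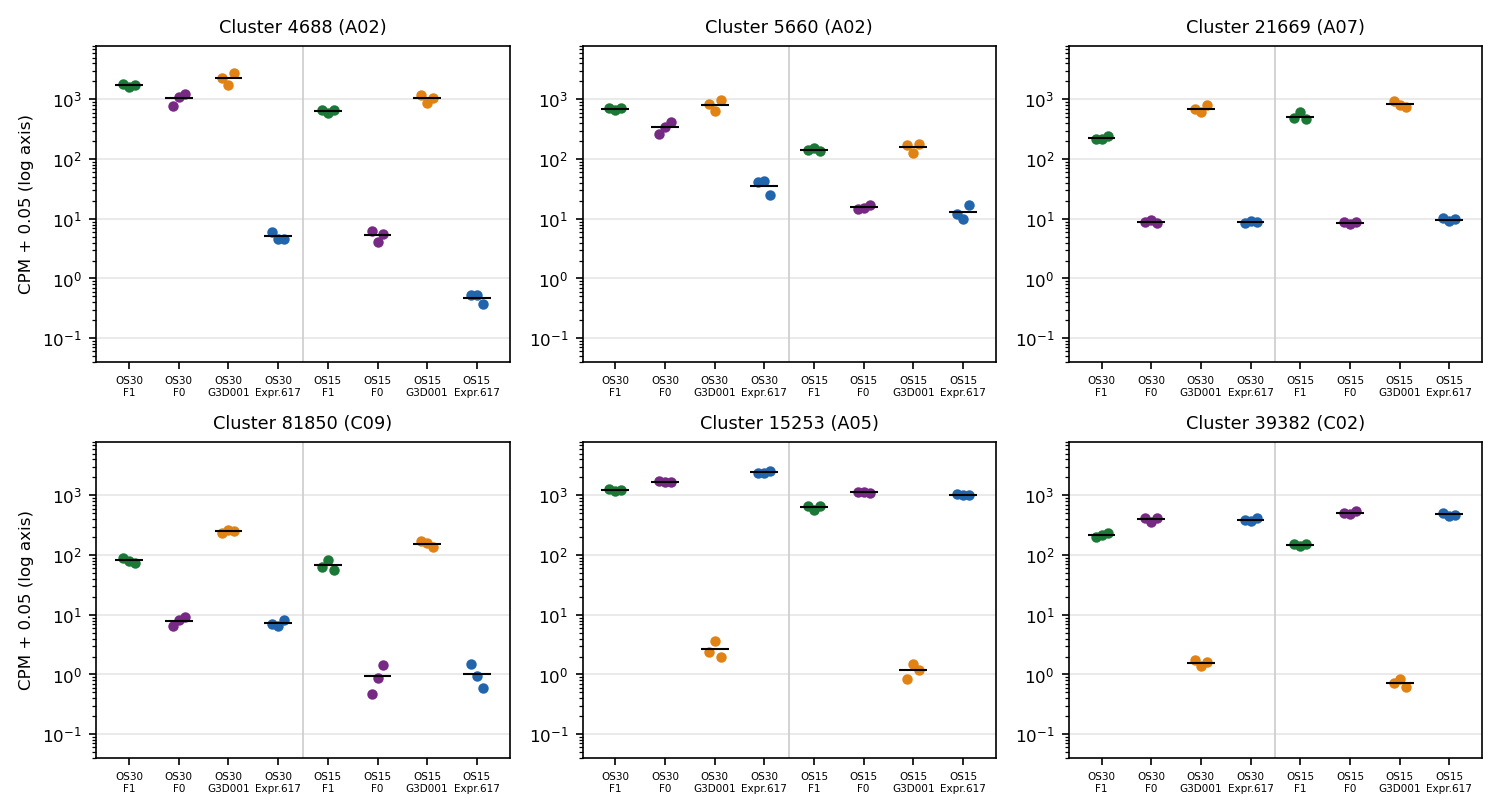
Level in every ovule library of 4 members higher in G3D001 and 2 lower in G3D001 at both stages, as CPM plus 0.05 on a log axis, with bars for the means of 3 libraries. In the F0, Cluster_4688 has 790 to 1224 CPM at OS30 and 3.97 to 6.24 CPM at OS15, whereas Cluster_21669 stays between 8.19 and 9.32 CPM.

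The F1 and the F0 ovules differ in the mother plant (F1 or Express617), in the pollen (of the F1 itself or of G3D001) and in the embryos, which segregate in the F1, so that these differences cannot be told apart. At OS15, 138 members differed between them (3.79%, background 6.16%), and at OS30, 66 members (1.81%, background 1.69%). At OS15, 108 were higher in the F1 (2.97%, background 4.16%) and 30 lower (0.824%, background 2%), and at OS30, 57 were higher (1.57%, background 1.34%) and 9 lower (0.247%, background 0.346%). Cluster_4688 had the smallest adjusted p-value at OS15, with a log2 ratio of F1 to F0 of 7.18 (SE 0.23, edgeR adjusted p = 4.72e-22), and Cluster_21669 at OS30, with a ratio of 4.76 (SE 0.19, edgeR adjusted p = 1.76e-10). In the opposite direction, Cluster_19292 (A06, 29355829 to 29358912) had 7.73, 6.45 and 7.12 CPM in the F1 at OS15, against 58.8, 49.4 and 51.1 CPM in the F0, while the parents had 0.125 to 1.04 CPM in G3D001, against 48.5 to 51.1 CPM in Express617. Cluster_3168 (A01, 28728156 to 28731593) had 3.35, 4.72 and 7.5 CPM in the F1 at OS30, against 17, 21 and 25.6 CPM in the F0, and its call was lost without F1 replicate 2 (edgeR adjusted p = 0.0506). With total counts as the scale, 68 members were higher and 71 lower in the F1 than in the F0 at OS15 (2871 and 3209 of all clusters). At OS30, 33 were higher and 15 lower on that scale (1009 and 520 of all clusters).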

How the data were processed

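The authors removed short reads with seqtk, aligned the rest to the Express617 assembly with ShortStack and deposited raw counts for 1 set of clusters in all libraries. The treatment of reads with several matching places is not given in the sources used here, so levels of repeated loci are uncertain. The 10201 entries without a position, with 2.33% to 10.1% of a library's counts, were left out. Clusters of at least 3000 bp were taken as members; these and the other lists were chosen with earlier results of these data known.

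CPM was computed from total counts on clusters with a position. Comparisons used edgeR 4.0.16 and its quasi-likelihood test (R 4.3.3, limma 3.58.1) with TMM factors, on the 9 libraries of each trio, the 12 of an ovule stage for the F1 against the F0, or all 33 libraries for changes between stages. Clusters without any count were dropped. Benjamini-Hochberg adjustment ran over all clusters tested, with a threshold of 0.05. The tests were checked on simulated data. Shares were compared with exact permutation tests (SciPy 1.17.1). P-values measure the spread between pooled biological replicates. The deviations of same-numbered libraries from their group means correlated above 0.1 in every pair for G3D001 and Express617 in leaves (0.13 to 0.63) and for the F0 and Express617 at OS15 (0.14 to 0.3) and OS30 (0.11 to 0.18). Same-numbered libraries of these groups may therefore be paired. No source states a pairing, and correlations of this size do not establish it. Other groups had at least 1 pair at or under 0.1. Across stages, the correlation of libraries with the same label code was above 0.1 in 3 of 12 pairs between OS30 and OS15 and in 0 of 9 between OS15 and leaves. These 3 pairs were G3D001 replicates 2 (0.55) and 3 (0.52) and Express617 replicate 3 (0.14), while G3D001 replicate 1 was at -0.21.

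Named members were the 3 longest; the 3 with the highest CPM per kb per stage; per stage and direction the 2 with the smallest adjusted p-value between parents without overlap; per trio and direction the transgressive member whose larger adjusted p-value was smallest; and, by smallest adjusted p-value, 2 per direction for OS30 over OS15 in Express617, 2 for the change of the parental difference between ovule stages, and 1 per ovule stage and direction for the F1 against the F0. Other members were named after their values were seen.

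Alternatives were DESeq2 1.42.0, RLE and total-count scaling, at least 10 counts in 3 libraries, a minimum log2 change of 1, a replicate block, a block by label code (added after the values were seen), limits of 2000 and 5000 bp, leaving out A02, C02 and C01, the F0 trio for the parents, log2(CPM + 1), other denominators of the share and leaving out each library. A02, C02 and C01 were left out because the paper reports duplicated or deleted sequence on them in G3D001. Figures were drawn with matplotlib 3.10.9.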

Additional observations from a re-analysis of the deposited data

Results flagged for a closer look

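The parental difference of 840 long clusters differed between OS30 and OS15 in an interaction test (edgeR, Benjamini-Hochberg adjustment over all clusters, 23.1% of the members against 22.5% of all clusters). The change in the log2 ratio of G3D001 to Express617 was 7.31 for Cluster_56288 and 6.89 for Cluster_16881, and in both the parent with the higher level changed.

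The difference of the F0 from Express617 differed between OS30 and OS15 for 23 long clusters, in a test added after the values were seen. The change was 3.92 on the log2 scale for Cluster_4688 and 2.85 for Cluster_5660, both on A02, which the paper's supplement reports as duplicated in G3D001. Groups held 3 libraries, so that single libraries were not tested as outliers.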

How the results depend on the processing

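Of the values other than single members, 177 kept their side or size under the alternatives that keep all libraries, 30 moved and 3 reversed; with 1 library left out, 435 kept it, 34 moved and 2 reversed. For 36 log2 changes of named members, each taken under many settings, 584 values stayed the same, 11 lost the call and 2 reversed. The causes were not tested, except that the filters test fewer clusters or require larger changes. With at least 10 counts in 3 libraries, the percentage of members called was 29.2 for the parents in leaves and 34.9 at OS15, 9.5 and 10.8 for F1 leaves against Express617 and G3D001, 11.9 and 15 for the F1 at OS15, 0.0758 and 34.5 for the F0 at OS15, and 11 for the F1 against the F0 at OS15. With a minimum log2 change of 1 it was 39.8 for the parents at OS30, 19.7 and 28.3 for the F1 against Express617 and G3D001, 26.5 for the F0 against G3D001 and 0.851 for the F1 against the F0 at OS30. With total counts it was 11.8 for F1 leaves against Express617, 94.7 for the F1 and 94.2 for the F0 against G3D001 at OS30, 40.3 for OS15 against leaves in the F1 and 66.3 for the interaction, and the positions were 0.531 for F1 leaves, 0.364 for the F1 at OS15, 0.0368 for the F1 at OS30 and 0.0578 for the F0 at OS30. Over all clusters the total-count percentages called were 12.4, 85.2, 85.8, 50.2 and 55.1, in the same order. Against G3D001, Cluster_1187 in the F1 reversed to 0.46 and Cluster_58530 in the F0 to 0.44. With DESeq2 the percentage was 0.714 for the F0 against Express617 at OS15 and 3.21 for the F1 against the F0 at OS30. For the F0 against Express617 at OS15 it was 0.0926 for at least 5000 bp, 0.0114 for at least 2000 bp and 0 without A02, C02 and C01. The F1 position at OS30 was 0.359 on log2(CPM + 1) and 0.373 without these chromosomes. The difference in share between G3D001 and Express617 reversed in leaves, to 0.166 points without the cluster with the most counts and 0.381 for at least 5000 bp, and at OS15, to 0.417 for at least 5000 bp.

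Leaving out 1 library gave 2.31 to 4.62% for F1 leaves against Express617, 2.88 to 6.4% and 3.57 to 7.47% for the F1 at OS15 against Express617 and G3D001, 5.16 to 28.3% for the F0 against Express617 at OS30, 0.686 to 2.69% for the F1 against the F0 at OS30, and 0.275 to 1.54% for the change of the F0 from Express617 between stages. The position ranged over 0.477 to 0.513 for F1 leaves, 0.409 to 0.492 for the F1 at OS15, 0.0304 to 0.0676 for the F0 at OS15 and 0.36 to 0.409 for the F1 at OS30, and the difference in share between G3D001 and Express617 leaves over -0.296 to 0.0992 points.

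With the replicate block, where same-numbered libraries may be paired, the percentage of members called was 16.6 for the parents in leaves, 0.0275 for the F0 against Express617 at OS15 and 12.4 at OS30. The block changed no call of a named member and moved no count by over 1.5 times in these or the other comparisons, in which libraries share only a number (15.5 and 59% for the parents at OS15 and OS30). The block by label code moved no count of the stage comparisons and interactions by over 1.5 times, with 67.8 to 87.8% of the members called between OS30 and OS15 in the genotypes. In leaves and at OS15 the median was 3 to 7 counts per member.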
